A study of Mus musculus with 4 samples.

Results

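Fatty acids reach the fetal liver as free acids and inside lipoproteins, and 10 genes that handle this uptake were followed in livers of fetuses whose dams ate a high-fat diet (HFD) or a control diet (CD). The genes were taken by name: Cd36, Fabp1, Fabp2, Fabp4, Fabp5, Slc27a2, Slc27a4, Slc27a5, Lpl and Lipc. Every non-control probe whose listed transcript belongs to one of them was used, which gave 14 probes for 10 genes, of 32986 probes named for 22909 genes on the array. All 14 passed the filters on dim and variable probes, and 41332 probes in all were compared. Dams were C57BL/6J mice that received the CD, with 4.3% of energy as fat, or the HFD, with 60% of energy as fat, during gestation, and the fetal livers were collected at E14.5, in mid-gestation. Each diet group had 2 single-colour Agilent arrays, called CD 1, CD 2, HFD 1 and HFD 2, each hybridised with total RNA of fetal liver. How many fetuses or litters stood behind an array is not given in the sources used here, so that p-values measure the spread between these arrays, which may be technical in part.

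Long-chain fatty acids enter hepatocytes with the help of CD36, a scavenger receptor of the plasma membrane, and of the fatty acid transport proteins (Slc27a family), which also couple fatty acids to coenzyme A. Inside the cell, fatty acid binding proteins (Fabp family) carry them through the cytosol. Lipoprotein lipase (Lpl) and hepatic lipase (Lipc) act outside the cell and release fatty acids from the triglycerides and phospholipids of lipoproteins. In mid-gestation the liver is also the main site of blood formation, so that its RNA comes from erythroid cells, megakaryocytes, macrophages, endothelium and mesenchyme as well as from hepatoblasts. With bulk RNA, fewer cells of a type and less RNA per cell cannot be told apart.

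The level of a probe is its background-subtracted intensity on the log2 scale, from which the 75th percentile of the array was taken away, so that a level of 0 equals that percentile. Levels of different probes were not set against each other, since probes differ in how well they bind. Median intensity ranged from 70.2 to 120.5 over the arrays, and 65.4% to 70.0% of the spots were well above background. All 4 samples carry the label female. Xist, the RNA that coats the inactive X chromosome, was nevertheless well above background only on CD 2 and HFD 2 (levels of -0.65 and -0.74, against -8.29 on CD 1 and -6.84 on HFD 1). The Y-linked genes Ddx3y, Eif2s3y, Kdm5d and Uty were well above background only on CD 1 and HFD 1. Eif2s3y, for example, had levels of 1.45 and 1.84 on these arrays and of -6.74 and -6.32 on CD 2 and HFD 2. Both arrays numbered 1 thus went against the label, if it refers to the fetus, and each diet group held 1 array of either kind. The difference between the diets is therefore also given within each replicate number, that is within the arrays of each kind.

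The hepatocyte markers Alb, Afp, Ttr and Apoa2 were well above background on every array, as were all 12 genes of the list for hepatoblasts and hepatocytes. Log2 levels of the tested probes differed with an SD of 0.58 between CD 1 and CD 2 and of 0.34 between HFD 1 and HFD 2. The number of arrays limits the precision of every comparison, and with 2 arrays in each group the smallest p of an exact permutation test is 0.33.

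Of the 10 genes, Cd36, Fabp1 and Fabp2 had both HFD arrays above both CD arrays, as did 19.5% of all tested probes. The 250 bases before the RefSeq start sites of these genes are shown here for that reason. The choice rests on this arrangement and not on a test. RefSeq promoters (assembly GRCm38.p6) were at hand for 6 of the 10 members, with the entries of Slc27a2, Slc27a4 and Lipc not printed. Capitals mark matches to 3 motifs searched on both strands. The first was AGGTCANAGGTCA with at most 1 mismatch, a direct repeat of the kind bound by peroxisome proliferator-activated receptors with their partner RXR and by HNF4A. The others were GTTAAT, part of the binding site of hepatocyte nuclear factors of the HNF1 family, and TATAAA, the TATA box. The motifs do not overlap each other in these sequences.
Fabp1, chr6:71199629-71199878, plus strand: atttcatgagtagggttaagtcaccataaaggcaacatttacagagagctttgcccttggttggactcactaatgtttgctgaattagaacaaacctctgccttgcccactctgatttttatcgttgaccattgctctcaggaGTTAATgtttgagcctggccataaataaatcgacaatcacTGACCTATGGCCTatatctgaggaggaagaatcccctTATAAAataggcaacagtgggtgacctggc
Fabp2, chr3:122894822-122895071, plus strand: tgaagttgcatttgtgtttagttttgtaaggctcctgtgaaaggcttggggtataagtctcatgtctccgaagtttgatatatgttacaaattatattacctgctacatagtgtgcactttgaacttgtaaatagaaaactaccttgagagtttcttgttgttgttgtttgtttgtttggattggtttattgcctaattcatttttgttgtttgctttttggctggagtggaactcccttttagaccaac
Cd36, chr5:17835897-17836146, minus strand: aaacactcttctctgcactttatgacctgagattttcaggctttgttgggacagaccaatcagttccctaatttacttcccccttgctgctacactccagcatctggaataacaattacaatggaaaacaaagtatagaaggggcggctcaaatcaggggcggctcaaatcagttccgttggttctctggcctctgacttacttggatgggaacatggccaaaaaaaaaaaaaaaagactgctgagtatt
The sequence of Fabp1 holds all 3 motifs. The direct repeat lies on the opposite strand, from 67 to 55 bases before the start, with 1 mismatch, GTTAAT from 107 to 102 bases before it and TATAAA from 30 to 25 bases before it. Neither the sequence of Fabp2 nor that of Cd36 holds a match, nor do those of the other members with an entry. Of 32851 RefSeq promoters of the same length, 0.484% hold the direct repeat within 1 mismatch, 6.43% hold GTTAAT and 12.4% hold TATAAA. A match is a description of the letters and not a site shown to be in use in these livers.

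No member probe differed between the diets by the cutoffs of the comparison, which ask for a change of at least 2-fold and an unadjusted p under 0.05. By limma, 0 of 14 member probes passed both cutoffs and 0 had an unadjusted p under 0.05. Both counts were also 0 by the methods' t-test. Over all tested probes, 0.769% passed both cutoffs and 3.34% had an unadjusted p under 0.05, while 0.0% had an adjusted p under 0.05. Every member probe had an adjusted limma p of 1.00. The member probes had log2 fold changes between -0.21 and 0.41. The 95% intervals lay within a 2-fold change in both directions for 10 of the 14 probes. The interval of Fabp1 reached just past it (-0.30 to 1.02), and those of the second probe of Slc27a4 (-1.12 to 1.52), of Lipc (-1.13 to 1.02) and of the last of the 3 probes of Lpl (-1.06 to 0.63) reached further.

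**Figure D1:**
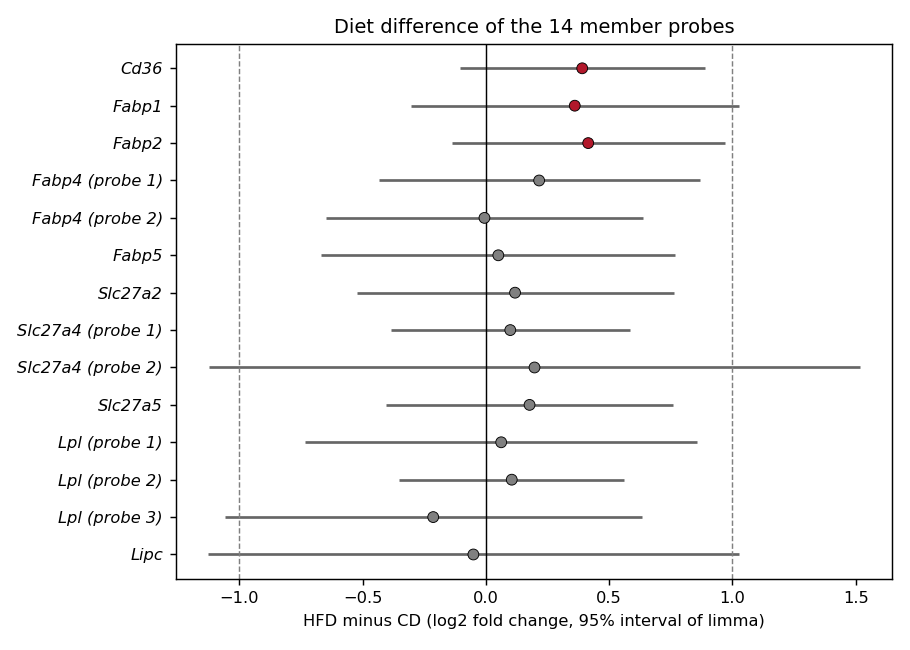
Difference between the HFD and CD group for each of the 14 probes of the 10 genes, as log2 fold change with the 95% interval of limma. Red points mark Cd36, Fabp1 and Fabp2, whose groups did not overlap, dashed lines mark a 2-fold change, and every interval includes 0.

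Among the genes of the plasma membrane, Cd36 read -0.62 on CD 1, -0.67 on CD 2, -0.40 on HFD 1 and -0.10 on HFD 2 (levels on the log2 scale). Both HFD arrays were above both CD arrays, which lay close together, and HFD 2 was the highest. The group means were -0.64 ± 0.04 (SD, n = 2) and -0.25 ± 0.21 (SD, n = 2), a 1.31-fold higher level in the HFD group that did not pass the test (log2 fold change of 0.39 with a standard error of 0.19, limma adjusted p = 1.00). The difference was 0.22 within replicate number 1 and 0.57 within replicate number 2. Without each array in turn, the log2 fold changes lay between 0.24 and 0.54. With groups that do not overlap, none of these values could change sign, so that they add no support for the direction.

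The transport proteins Slc27a2 and Slc27a5, which activate very long-chain fatty acids and bile acids, had groups that overlapped. Slc27a2 read 3.24 on CD 1, 3.75 on CD 2, 3.72 on HFD 1 and 3.51 on HFD 2. CD 1 was the lowest and CD 2 the highest, with the HFD arrays between them. Its log2 fold change was 0.12 (standard error 0.24), the mean of opposite differences within replicate number 1 (0.48) and within replicate number 2 (-0.24). Slc27a5 read 1.43 on CD 1, 1.87 on CD 2, 1.90 on HFD 1 and 1.75 on HFD 2. CD 1 was again the lowest, and CD 2 lay between the HFD arrays. Its log2 fold change was 0.18 (standard error 0.22), with 0.46 within replicate number 1 and -0.11 within replicate number 2.

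Slc27a4, a transport protein of many tissues that is best known for fatty acid handling in gut and skin, had 2 probes. The first read -2.29 on CD 1, -2.34 on CD 2, -2.36 on HFD 1 and -2.08 on HFD 2. HFD 1 lay just below both CD arrays and HFD 2 above them (log2 fold change of 0.10, standard error 0.18). The second probe read -5.04 on CD 1, -6.40 on CD 2, -5.32 on HFD 1 and -5.72 on HFD 2. It was well above background on CD 1 and HFD 1 alone, and its log2 fold change of 0.20 has a standard error of 0.50.

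The binding proteins Fabp1 and Fabp2, the liver and the intestinal form, had, with Cd36, the highest log2 fold changes among the members. Fabp1, the main carrier of fatty acids in the hepatocyte cytosol, read 4.72 on CD 1, 5.30 on CD 2, 5.41 on HFD 1 and 5.32 on HFD 2. CD 1 was low and the others lay close together. The groups were separated by 0.03 only, against an error of 0.14 (log2) that the scanner software gives for each of these spots. Its log2 fold change of 0.36 (standard error 0.25, limma adjusted p = 1.00) rested on CD 1, with 0.69 within replicate number 1, 0.03 within replicate number 2 and 0.07 without CD 1. Fabp2 read 1.76 on CD 1, 2.17 on CD 2, 2.37 on HFD 1 and 2.39 on HFD 2. CD 1 was the lowest, CD 2 lay above it and both HFD arrays were higher than CD 2 by at least 0.20. The group means were 1.96 ± 0.29 (SD, n = 2) and 2.38 ± 0.01 (SD, n = 2), a 1.33-fold higher level in the HFD group that did not pass the test (log2 fold change of 0.41 with a standard error of 0.21, limma adjusted p = 1.00). Without CD 1 the log2 fold change was 0.21, and without CD 2 it was 0.62. Fabp1 likewise reached 0.65 without CD 2.

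Fabp4 and Fabp5, the binding proteins of adipocytes, macrophages and endothelium and of epidermis and many other cells, had groups that overlapped. Fabp4 read 2.62 on CD 1, 2.56 on CD 2, 2.53 on HFD 1 and 3.09 on HFD 2. HFD 2 was high, and HFD 1 lay just below both CD arrays. Its second probe had the same order of HFD arrays, with -0.34 on CD 1, -0.28 on CD 2, -0.59 on HFD 1 and -0.04 on HFD 2. The HFD arrays differed by 0.56 at the first and 0.55 at the second probe, which was more than the log2 fold changes of 0.22 (standard error 0.25) and -0.01 (standard error 0.24). Fabp5 read 7.34 on CD 1, 8.0 on CD 2, 7.75 on HFD 1 and 7.69 on HFD 2. CD 1 was the lowest, CD 2 the highest and the log2 fold change was 0.05 (standard error 0.27), with 0.41 within replicate number 1 and -0.31 within replicate number 2.

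By their first probes, the lipases showed the widest spread between the CD arrays among the members. Lpl read 2.54 on CD 1, 3.31 on CD 2 and 2.99 on either HFD array at its first probe. Both HFD arrays lay between CD 1 and CD 2, and the log2 fold change was 0.06 (standard error 0.30). The second probe of Lpl gave 0.10 (standard error 0.17) and the last one -0.21 (standard error 0.32), and at both CD 1 was the lowest array. Lipc read -2.52 on CD 1, -1.41 on CD 2, -1.93 on HFD 1 and -2.10 on HFD 2. The CD arrays differed by 1.11, more than for the first probe of any other member, and the HFD arrays lay between them. Its log2 fold change was -0.05 (standard error 0.41), and its direction was set by which CD array was kept. Without CD 1 it was -0.61, and without CD 2 it was 0.50. The direction of Lpl turned as well, with -0.32 without CD 1 and 0.45 without CD 2.

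**Figure D2:**
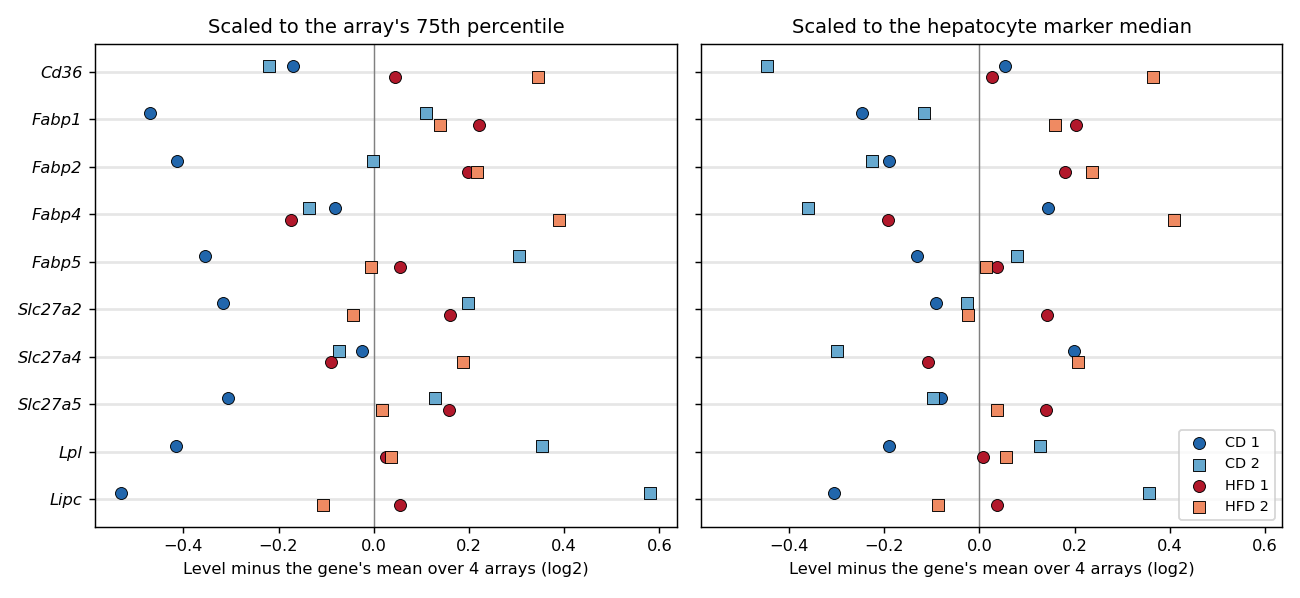
Level of each member gene on the 4 arrays, by its first probe, as the log2 difference from the mean of that gene, with arrays scaled to their 75th percentile (left) or to the median of 12 hepatocyte markers (right). On the left CD 1 is the lowest array for 7 of 10 genes. On the right the CD arrays of Fabp1, Fabp2, Slc27a2 and Slc27a5 move together, and those of Cd36, Fabp4 and Slc27a4 move apart.

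For most members the CD arrays differed from each other by more than the diets did. CD 1 was the lowest array for 7 of the 10 genes, by their first probe, and for 37.3% of all tested probes. CD 2 was the highest array for 4 of them, Fabp5, Slc27a2, Lpl and Lipc, and for 33.5% of all tested probes. For 6 of the 10 genes the difference between the CD arrays was greater than the log2 fold change between the diets, as for 72.8% of all tested probes. The mean of the HFD group was higher for 9 of the 10 genes, with Lipc as the exception, and for 55.0% of all tested probes. The median log2 fold change was 0.15 over the 10 genes and 0.03 over all tested probes. Both HFD arrays were above both CD arrays for 3 of the 10 genes and 3 of the 14 probes, against 19.5% of all tested probes, and both were below for 0 of them, against 11.1%. For 3 of the 10 genes, Cd36, Fabp1 and Fabp2, the difference was above 0 within both replicate numbers, as groups that do not overlap require. Such a difference was found for 25.0% of all tested probes. The differences within replicate number 1 were above 0 for 8 of the 10 genes, and those within replicate number 2 for 5.

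**Figure D3:**
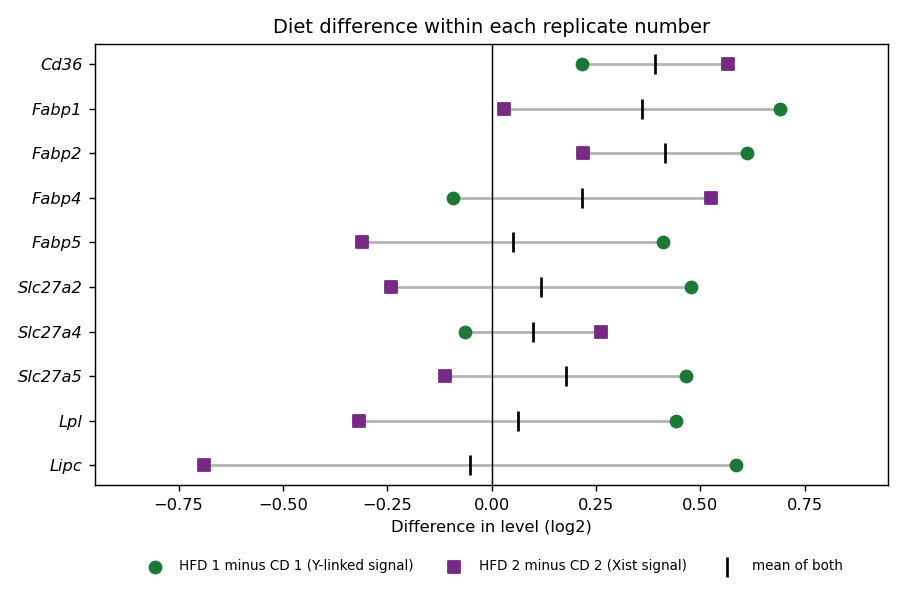
Difference in level between the HFD and the CD array with the same replicate number, for the first probe of each member (log2). Circles are the arrays with Y-linked signal, squares the arrays with Xist signal, and bars their mean. Circles and squares lie on opposite sides of 0 for 7 genes, among which Lipc has the widest gap (0.59 and -0.69). No test applies to 1 array against 1.

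Markers of liver cell types moved with the same arrays. All 12 hepatocyte markers were lowest on CD 1, and 11 of them highest on CD 2, all but Apoa1. Their median level was 7.71 on CD 1, 8.16 on CD 2, 7.96 on HFD 1 and 7.92 on HFD 2. Their summed signal, in units of the 75th percentile, was 2003 and 3038 in the CD group and 2401 and 2445 in the HFD group. Erythroid markers were lowest on CD 1 in 9 of 10 cases and megakaryocyte markers in 9 of 10, with summed signals of 83.8 and 146.5 in the CD group against 129.3 and 127.0 in the HFD group for the latter. Markers of stellate and mesenchymal cells ran the other way, with a summed signal of 548.0 on CD 1, 279.2 on CD 2, 381.6 on HFD 1 and 426.9 on HFD 2. Col1a1, for example, had levels of 6.82, 5.48, 6.20 and 6.47 in this order. Muscle markers did likewise, with 103.7, 52.4, 60.2 and 82.7. The part of these lists in the levels of the members was not tested.

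**Figure D4:**
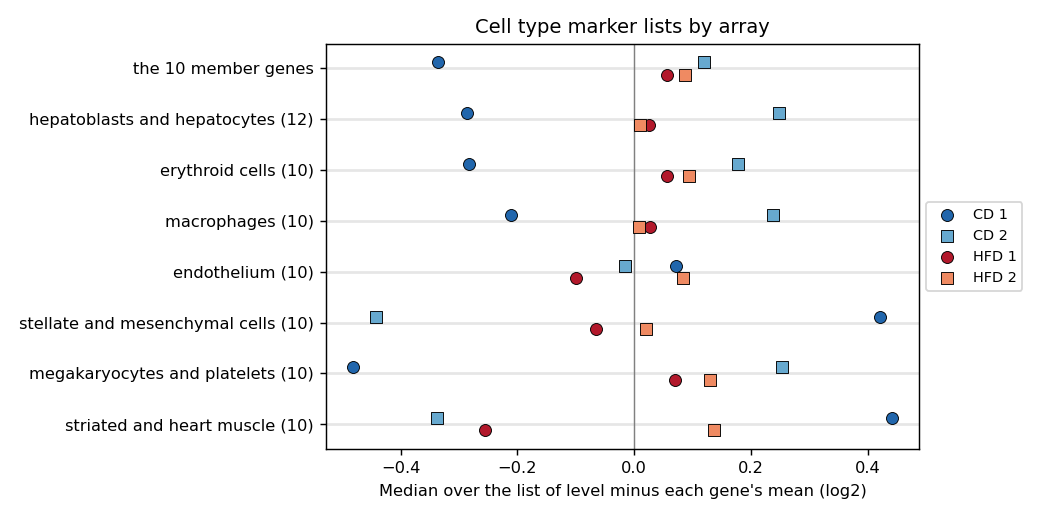
Median over each marker list of the level minus the mean of each gene (log2), on the 4 arrays, with the 10 member genes in the first row and the number of genes of the other lists in brackets. CD 1 is the lowest array for the members and for hepatocyte, erythroid, macrophage and megakaryocyte markers, and the highest for mesenchymal and muscle markers.

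When levels were taken relative to the median of the 12 hepatocyte markers, the difference between the CD arrays fell from 0.58 to 0.13 for Fabp1, from 0.41 to 0.04 for Fabp2, from 0.51 to 0.06 for Slc27a2 and from 0.43 to 0.02 for Slc27a5. It also fell from 0.66 to 0.21 for Fabp5, from 0.77 to 0.32 for Lpl and from 1.11 to 0.66 for Lipc. For Cd36, Fabp4 and Slc27a4 it grew from 0.05 in each case to 0.50. The scaling shifted CD 2 against CD 1 by the same amount for every gene, so that these changes only reflect the first differences. On this scale both HFD arrays were above both CD arrays for Fabp1, Fabp2, Slc27a2 and Slc27a5, and no longer for Cd36. This arrangement held for 12.4% of all tested probes on this scale, and its opposite, which held for the last probe of Lpl, for 11.9%. Slc27a2 read -4.48 on CD 1, -4.41 on CD 2, -4.24 on HFD 1 and -4.41 on HFD 2, so that HFD 2 cleared CD 2 by less than the error of a spot. Slc27a5 read -6.28 on CD 1, -6.30 on CD 2, -6.06 on HFD 1 and -6.17 on HFD 2, and its groups were likewise closer than the error of a spot. The log2 fold changes were 0.36 for Fabp1, 0.42 for Fabp2 and 0.39 for Cd36. They could hardly move, since the marker median had nearly the same mean in both diet groups and this scaling shifts every probe alike.

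Markers of other tissues and cell types were followed as well, and some had diet groups that did not overlap. Of 12 trophoblast markers, 10 had both HFD arrays below both CD arrays, against 11.1% of all tested probes. Several of them, such as Tpbpa, Prl8a8 and Cts3, are on the study's list of genes lower in the HFD group of these same arrays. The marker lists were chosen with such results known, so that their counts are no independent support. Only 2 of the 12 trophoblast markers were tested, since the filters on dim and variable probes left out the others. Tpbpa, a marker of the spongiotrophoblast that was not tested, read 3.01 on CD 1, 4.80 on CD 2, 1.00 on HFD 1 and -1.01 on HFD 2. The summed signal of this list was 65.7 and 75.4 in the CD group and 46.9 and 49.4 in the HFD group. Gcm1, a regulator of the placental labyrinth whose groups overlapped, made up 50.2 and 19.4 of these sums in the CD group and 43.3 and 48.5 in the HFD group. The other trophoblast markers summed to 15.5 on CD 1, 56.0 on CD 2, 3.62 on HFD 1 and 0.968 on HFD 2. Of 10 markers of kidney, gonad and adrenal, 7 had both HFD arrays above both CD arrays, against 19.5% of all tested probes. Dazl and Mael counted among them although their signal in the CD group did not stand out from background. Cdh16, Cyp11a1, Dazl and Mael are on the study's list of genes higher in the HFD group of these same arrays. Cdh16, Star and Mael were not tested. The summed signals of this list were 13.1 and 7.27 in the CD group and 16.0 and 19.2 in the HFD group. Cyp11a1, the enzyme that starts steroid synthesis, read -1.56 on CD 1, -2.78 on CD 2, -0.72 on HFD 1 and 0.13 on HFD 2. Of 10 gut markers, 8 were well above background on every array, among them Vil1, Cdx1, Cdx2 and Cdh17. Muc2 was well above background on all arrays but CD 2, and Sis on none. The list had summed signals of 6.70 and 7.77 in the CD group and of 8.39 and 8.34 in the HFD group. Without Apoa4, an apolipoprotein that liver also makes, the sums overlapped, with 5.32 and 4.82 against 4.74 and 6.15. Among 8 adipocyte markers, 4 were well above background on every array, and Adipoq and Ucp1 on none. Plin1 was well above background on HFD 1 alone, and Cfd on CD 1 alone. Plin1 read -5.92 on CD 1, -7.58 on CD 2, -5.03 on HFD 1 and -5.82 on HFD 2. It was the 1 gene of this list whose groups did not overlap. The list had summed signals of 0.886 and 0.763 in the CD group and of 0.847 and 0.806 in the HFD group. The levels of Fabp4 are given above. Endothelial markers, which bear on Fabp4 and Cd36, summed to 63.8 and 59.4 in the CD group and 64.5 and 69.3 in the HFD group. Of these sums, Egfl7 alone gave 32.6 and 28.8 against 34.6 and 37.2. The mean of the HFD group was higher for 4 and lower for 6 of these 10 genes, with a median log2 fold change of -0.08. Macrophage markers had 63.9 and 84.1 against 82.0 and 79.9. The part of these tissues in the differences of Cd36, Fabp1 and Fabp2 was not tested.

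The wider machinery of fatty acid and lipoprotein handling was followed in 6 lists with 58 genes, each by its probe with the highest mean level. Of these, 54 were tested, while Fabp9, Pmp2 and Lipg were left out as dim and Crabp2 had no matched probe. By limma, 0 of the 54 passed both cutoffs. Fabp7 alone had an unadjusted p under 0.05, as with the replicate block, while by the methods' t-test Hnf4a alone had one. The median log2 fold change of the 54 genes was 0.08, and 35 had a higher mean in the HFD group. Both HFD arrays were above both CD arrays for 12 of them, or below for 5, against the 19.5% and 11.1% given above.

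**Figure D5:**
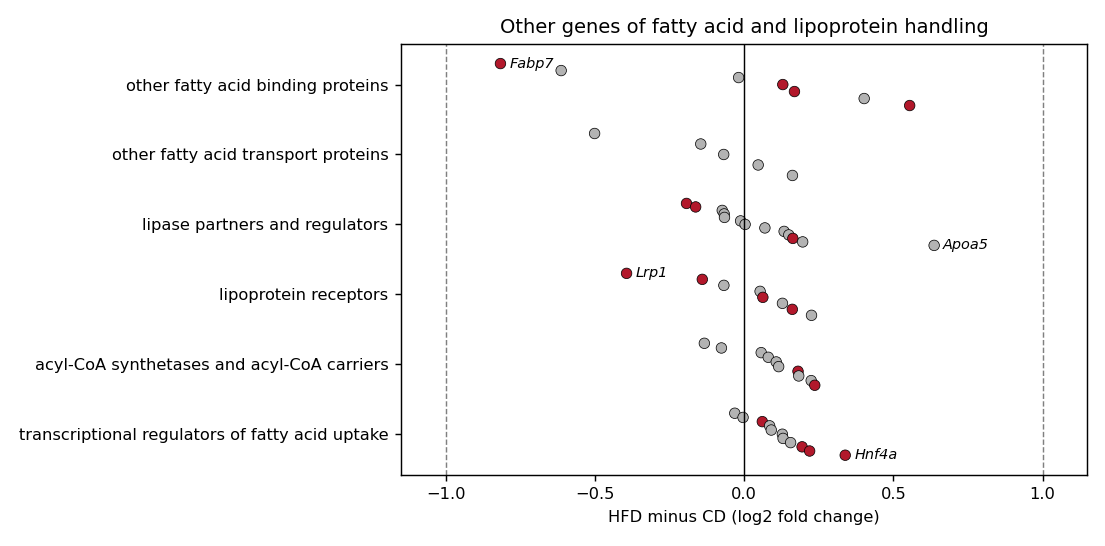
Log2 fold change between the diets of 54 genes in 6 lists. Each point is 1 gene, red points have groups that did not overlap, and dashed lines mark a 2-fold change, which no gene reached. Fabp7 lies farthest to the left, at -0.82, and Apoa5 farthest to the right, at 0.64.

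Among other fatty acid binding proteins, Fabp7, the form of neural progenitors, read 1.22 on CD 1, 1.12 on CD 2, 0.11 on HFD 1 and 0.60 on HFD 2. Both HFD arrays were lower (log2 fold change of -0.82 with a standard error of 0.23, limma adjusted p = 1.00). Fabp3, the heart form, had levels of 1.18 and 1.20 against 1.38 and 0.97 and overlapped. Of the other transport proteins, Slc27a1, Slc27a3 and Slc27a6 had log2 fold changes of 0.16, 0.05 and -0.15 with overlapping groups. In this list of 5 genes, 2 had a higher and 3 a lower mean in the HFD group.

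Lpl works with partners, and 13 of 14 of these were tested. Gpihbp1, which holds lipoprotein lipase on capillary endothelium, and Lmf1, which is needed for its folding, both had a log2 fold change of -0.07 (standard error 0.21 for Gpihbp1 and 0.18 for Lmf1). The inhibitors Angptl4 and Angptl8 had log2 fold changes of 0.16 and -0.07. Of these, Angptl4 had groups that did not overlap, with 2.84 on CD 1, 2.82 on CD 2, 3.06 on HFD 1 and 2.93 on HFD 2. Apoc2, the activator of lipoprotein lipase, read 6.69 on CD 1, 7.46 on CD 2, 7.09 on HFD 1 and 7.07 on HFD 2, with CD 1 the lowest and CD 2 the highest, as for Lpl. Apoc3, an inhibitor, had a log2 fold change of 0.20 (standard error 0.22). Apoa5, which promotes the action of the lipase, read -3.29 on CD 1, -2.68 on CD 2, -2.01 on HFD 1 and -2.69 on HFD 2, and had a log2 fold change of 0.64 (standard error 0.34). Lipg, endothelial lipase, was not well above background on any array and was not tested.

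The receptors for lipoproteins had small differences. Vldlr and Scarb1 had log2 fold changes of 0.13 and 0.23. Lrp1, a receptor for remnant lipoproteins, read 2.34 on CD 1, 2.23 on CD 2, 1.98 on HFD 1 and 1.80 on HFD 2, with both HFD arrays lower (log2 fold change of -0.39, standard error 0.17, limma adjusted p = 1.00). Of the enzymes and carriers that follow uptake, 8 of 10 had a higher mean in the HFD group. CD 1 was the lowest array for 8 of the 10. The difference was above 0 for all 10 within replicate number 1 and for 4 within replicate number 2. Acsl1, Acsl4 and Acsl5, which couple fatty acids to coenzyme A, had log2 fold changes of 0.08, 0.24 and -0.13. Of these, Acsl4 had groups that did not overlap, with 2.54 and 2.67 against 2.78 and 2.90. Dbi, the acyl-CoA binding protein, and Scp2, a sterol and fatty acyl carrier, had 0.18 and 0.22 with overlapping groups.

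Of 11 transcriptional regulators of fatty acid uptake, 9 had a higher mean in the HFD group, and the median over the list was 0.13 (log2 fold change). CD 1 was the lowest array for 8 of the 11. The difference was above 0 for 10 of them within replicate number 1 and for 5 within replicate number 2. Hnf4a, a master regulator of hepatocyte genes, read 3.91 on CD 1, 4.01 on CD 2, 4.32 on HFD 1 and 4.28 on HFD 2. Both HFD arrays were higher, and the difference did not pass both cutoffs (log2 fold change of 0.34, standard error 0.16, limma adjusted p = 1.00). Ppara and Pparg, the nuclear receptors that fatty acids activate, had log2 fold changes of 0.09 and -0.00, and Ppargc1a, their coactivator, of 0.16. Nr1h3, the liver X receptor, read 1.73 on CD 1, 2.39 on CD 2, 2.21 on HFD 1 and 2.18 on HFD 2, with CD 1 the lowest and CD 2 the highest array. Rxra, the partner of these receptors, had groups that did not overlap but a log2 fold change of 0.06.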

How the data were processed

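Liver RNA of fetuses from CD-fed and HFD-fed dams had been hybridised to 2 arrays per group, and the labels gave each array its group and replicate number. The authors read the arrays with Agilent Feature Extraction 11.0.1.1 (submitters' processing notes) and deposited for each spot an intensity, background-subtracted, detrended and not scaled between arrays, with its error. Deposited scores of 0 or 1 mark outlier spots, saturated spots and spots well above background. A further table of normalized signal from the authors was found here to be the intensity divided by 1 constant per array, close to the 75th percentile that the methods name.

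Levels are log2 intensities minus the 75th percentile of the array, averaged over the unflagged spots of a probe. As in the study's methods, probes that fell under the 20th percentile of some array (14980 of 56596) or with a CV over 50% in both groups (284, linear scale) were left out, and 41332 were tested with limma 3.58.1 in R 4.3.3, with Benjamini-Hochberg adjustment. On simulated data of 41332 probes with 200 changed 4-fold, 95.0% of these were called and 0 probes passed after adjustment. In error 392 unchanged probes were called, more than the 318 called in the data themselves. The noise was drawn for each probe alone, and the highest member change was 1.33-fold, so that the 95.0% does not apply to the members. Probes were named through their transcripts by RefSeq (GRCm38.p6), and of each gene the probe with the highest mean level came first. Named genes were all members, a fixed choice of their pathway by role and any listed gene past both cutoffs. Some genes under this rule are not reported here. The members and lists were chosen with earlier results of these data known. Genes beyond this rule (Crabp1, Rxra and the markers) were named after their values were seen. Replicate numbers were treated as a block only as an alternative.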

Additional observations from a re-analysis of the deposited data

How the results depend on the processing

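Over all tested probes, 318 passed both cutoffs (121 higher and 197 lower). The number was 845 without the filter on low signal, 33 with normexp background correction, 97 with the methods' t-test and 46 with Welch's correction, and it ranged from 656 to 1223 when 1 array was left out. With the replicate block it was 435. Replicate numbers coincided with the split in Xist and Y-linked signal, but the labels tie no animal or batch to them and the differences between replicates 1 and 2 of the CD and of the HFD group correlated with r = -0.10 across probes, so that the block stayed an alternative. Of the member probes, 0 passed both cutoffs under every alternative run, the block included. Of the context genes, 0 passed, except that leaving out 1 array gave between 0 and 1 gene (Crabp1 without CD replicate 2, at -1.28, and Fabp7 without HFD replicate 2, at -1.06). Member probes whose groups did not overlap numbered 3 (all higher in the HFD group), 5 relative to hepatocyte markers (4 higher, and the last probe of Lpl lower) and 4 with normexp (3 higher, and the second probe of Slc27a4 lower).

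The directions of Cd36, Fabp1 and Fabp2 held with quantile normalization and with normexp background correction. Leaving out 1 array could not turn them, since both HFD arrays were above both CD arrays. Other filters, the t-tests and the replicate block leave a log2 fold change as it is and could not turn it. Scaling to hepatocyte markers and the authors' table shifted all members alike by a small amount. Leaving out 1 array turned the directions of the other members, with ranges from -0.0655 to 0.50 for Fabp4, from -0.28 to 0.38 for Fabp5, from -0.14 to 0.38 for Slc27a2, from -0.0396 to 0.24 for Slc27a4, from -0.0402 to 0.39 for Slc27a5, from -0.32 to 0.45 for Lpl and from -0.61 to 0.50 for Lipc. Lpl also turned with quantile normalization (-0.0002) and with the mean of its probes (-0.0159). The differences within a replicate number were chosen after seeing the data. Without 1 array, its group is a lone array that is assumed to vary like the other group. The cause of these turns was not tested. A slide block was not run, as there was 1 slide and 1 scan. Precision is limited by 2 arrays per group, and the second probe of Slc27a4 by its signal over background.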
